A study of Mus musculus with 8 samples.

Results

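The genes followed here carry sugar into the cell, run it through glycolysis and respond to it through the transcription factor ChREBP. They were chosen by symbol, as 37 of the 23284 genes in the deposited count tables. The counts are of pancreatic endocrine cells with the gene of the transcription factor Neurod1 knocked out or kept. The cells came from mice at embryonic day 17 on a background labelled C56BL/J, and all 8 libraries shared the Neurog3Cre+ and RosaTomato+ alleles, so that cells descended from Neurog3-expressing precursors were sorted by their Tomato fluorescence. In 4 libraries the Neurod1 genotype was floxed/floxed (KO, replicates 8, 9, 17 and 24), and in the other 4 it was floxed/wt (Het, replicates 6, 7, 13 and 19). The controls therefore carry a single floxed allele and the same Cre, and no library without Cre is part of the comparison. Neurog3 is switched on in precursors of every islet cell type, so Cre can act on floxed Neurod1 before these cells take their final form and in more than beta cells alone. The labels do not say whether each library is a separate embryo, so p-values measure the spread between these libraries.

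Glucose crosses the cell membrane through carriers of the Slc2a family. Hexokinases phosphorylate it, phosphofructokinase commits it to glycolysis, and the lower steps turn it into pyruvate. Beta cells are known for a glycolytic set built around Slc2a2, for little Hk1 and little lactate output, and for an active glycerol phosphate shuttle that hands cytosolic electrons to mitochondria. Sugar phosphates also activate ChREBP, the product of Mlxipl, which pairs with Mlx on DNA. Its best known targets include Txnip and Arrdc4, alpha-arrestins that reduce glucose uptake.

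Deposited counts summed to between 10350040 and 16080392 per library, and levels are given as CPM, each count divided by its TMM-scaled library size and brought to a common scale. Neurod1 stood at 14.8 ± 9.17 CPM in KO and 156 ± 36.5 CPM in Het (SD, n = 4 each), and its log2 fold change, by edgeR's quasi-likelihood test, was −3.40 ± 0.52 (SE) at an adjusted p of 0.0165. KO replicates 8, 9, 17 and 24 had 2.55, 12.9, 22.2 and 21.5 CPM, so some Neurod1 reads remained in each. The summed level of 6 pan-endocrine markers was 4628 to 6160 CPM in Het and 1992 to 5195 CPM in KO. Beta-cell markers summed to 26635 to 48813 CPM in Het and 6065 to 12938 CPM in KO, and alpha-cell markers to 30805 to 32249 CPM and 12015 to 21373 CPM. Hormone genes make up most of both sums: Ins1, Ins2 and Iapp had Het means of 13307, 13624 and 6084 CPM, and Gcg one of 30589 CPM. Of the 8 beta-cell markers 3 were called, all lower (Ins1, Ins2 and G6pc2), while the beta-cell factors Pdx1 and Nkx6-1 and the late marker Ucn3 overlapped between genotypes, with log2 fold changes of −0.0072, 0.24 and 0.06. The genotypes did not overlap for 5 of the 8, with Mafa and Iapp beside the 3 called. Of the 5 alpha-cell markers Gcg and Irx1 were called, both lower. All 5 had a negative log2 fold change, and 3 of them did not overlap. The 6 pan-endocrine markers were all negative too, with a median of −0.40, and 1 of them did not overlap. Over all tested genes 8.03% did not overlap. In sorted bulk samples fewer cells of a type and less RNA per cell cannot be told apart. KO replicate 8 stood apart: 11 mesenchyme markers summed to 9396 CPM there and to at most 1148 CPM in any other library, and 7 immediate-early genes to 4577 CPM against at most 2252 CPM. Leukocyte markers summed to 444 CPM in KO replicate 8 and 241 CPM in KO replicate 9, against 13.2 to 62.3 CPM in the other 6 libraries. Acinar markers ran from 10317 to 32226 CPM in Het and from 13444 to 46175 CPM in KO, with the highest value in KO replicate 9. In every library this sum was above that of the pan-endocrine markers. Sums over unlike genes do not give shares of cells. Endothelial markers (at most 26.2 CPM) and hepatocyte markers (at most 12.4 CPM) were low throughout, and the globin genes Hba-a1, Hba-a2, Hbb-b1 and Hbb-b2 were at 0 in all 8 libraries. Y-linked genes summed to between 414 and 497 CPM in Het replicate 7 and KO replicates 8, 9 and 24 and to under 1 CPM in the rest, so this signal was not balanced between the genotypes.

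Most of this metabolic route did not differ detectably between the genotypes, and the differences lay at a few points around it. Of the 37 genes 35 passed the filter on low counts. 3 of these 35 (8.57%) were called at an adjusted p under 0.05: the fructose carrier gene Slc2a5 fell, and the gluconeogenic phosphatase gene Fbp1 and the arrestin gene Txnip rose. Over all 14116 tested genes 1.02% were called, 0.680% as lower and 0.340% as higher in KO. CPM values of the genotypes did not overlap for 7 of the 35 (20.0%), namely Slc2a5, Fbp1, Txnip, Arrdc4, Pfkfb3, Gpd1 and Gpd2, against 8.03% of all tested genes. An unadjusted p under 0.05 was reached by 9 of the 35, 3 lower and 6 higher, against 12.2% of all tested genes. In contrast 19 of the 35 had a log2 fold change between −0.25 and 0.25, which is 54.3% against 47.9% of all tested genes. The median log2 fold change was 0.09 for the 35 genes and 0.03 for all tested genes.

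**Figure D1:**
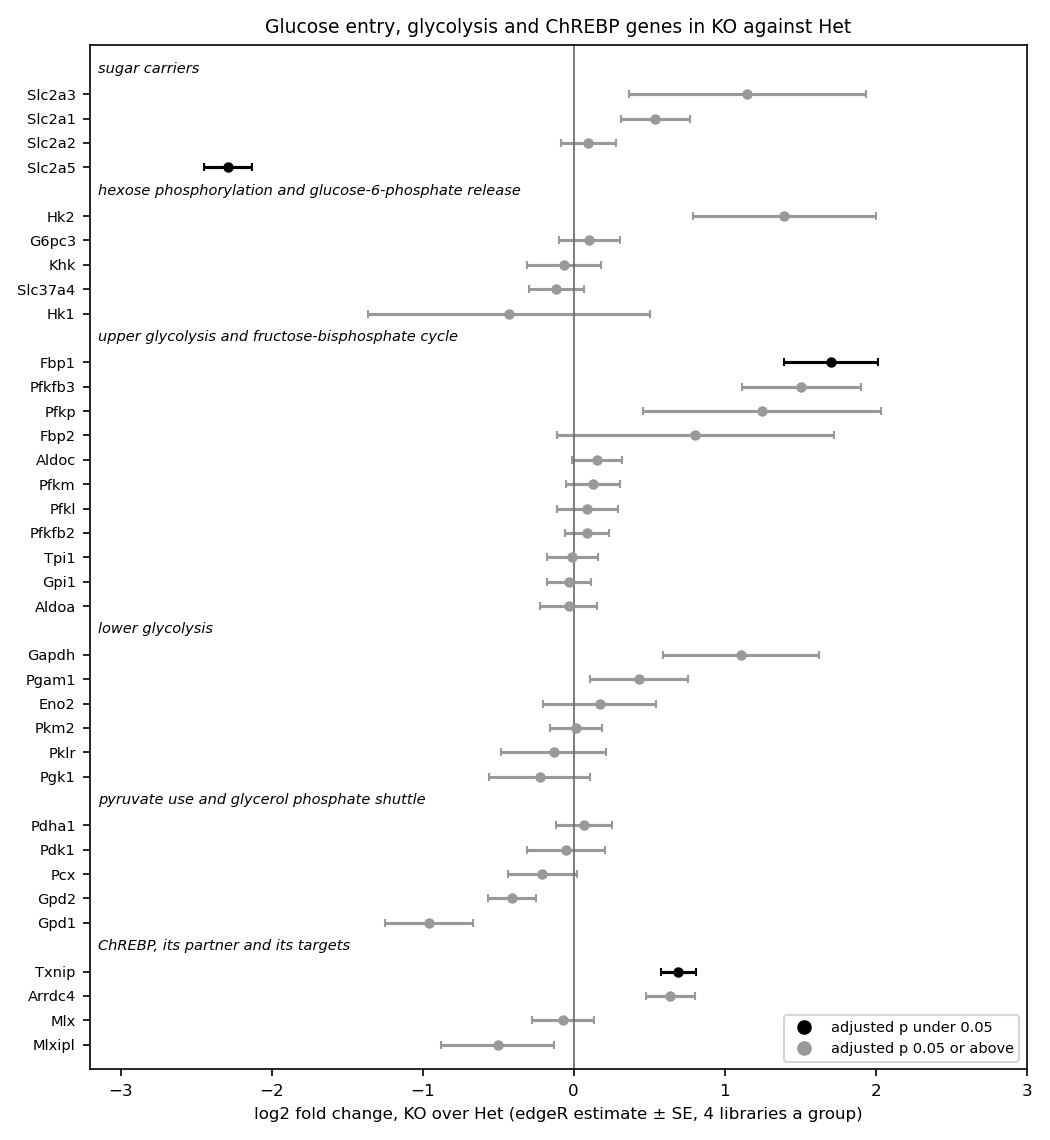
Log2 fold change (KO over Het, x axis) of the 35 tested genes, grouped by role, with bars of 1 standard error from the edgeR fit to 8 libraries. Slc2a5 at −2.29 lies far below the rest, Fbp1 at 1.70 is the highest, and most genes of the glycolytic steps sit near 0.

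Slc2a5, the gene of the fructose carrier GLUT5, showed the largest fall of the set and ranked 3rd by p among all 14116 tested genes. It stood at 80.3, 77.7, 75.0 and 71.1 CPM in Het replicates 6, 7, 13 and 19, and at 13.7, 15.2, 18.2 and 15.2 CPM in KO replicates 8, 9, 17 and 24. The libraries of each genotype lie close together and far from those of the other, with means of 76.0 ± 3.93 and 15.6 ± 1.92 CPM (SD, n = 4). The Het level was 4.88-fold the KO level, a change of −2.29 on the log2 scale (SE 0.16, adjusted p = 0.000154, edgeR). Under all 18 alternative settings Slc2a5 was called, with log2 fold changes between −2.39 and −2.19. The value was −2.24 without KO replicate 8, −2.23 with a covariate for Y-linked genes and −2.20 with a covariate for leukocyte markers. Y-linked and leukocyte signal were uneven between the genotypes, and their part in the fall was not tested. Per length, Slc2a5 held 24.1 ± 1.24 CPM per kilobase in Het, above the 10.8 ± 1.48 CPM per kilobase of the general glucose carrier gene Slc2a1, and 4.93 ± 0.607 CPM per kilobase in KO. None of its 3059 windows of 100 bases, the read length, was shared with another gene.

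The 250 bases before the Slc2a5 start in RefSeq (GRCm38.p6, chr4:150119094-150119343, plus strand) are shown because this gene changed most and because Neurod1 belongs to a family that binds E-boxes, CANNTG. Capitals mark each CANNTG match, on either strand.

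Slc2a5: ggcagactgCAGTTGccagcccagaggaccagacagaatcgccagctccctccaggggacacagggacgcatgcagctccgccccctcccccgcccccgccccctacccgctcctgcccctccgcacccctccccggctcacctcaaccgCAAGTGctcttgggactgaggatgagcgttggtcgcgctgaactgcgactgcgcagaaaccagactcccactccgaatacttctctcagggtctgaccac

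This window holds 2 such matches, the first starting 241 bases before the gene start. CANNTG is found in 66.2% of the 32851 RefSeq windows of this length and in 68.5% of the 54 windows of the 34 genes of the set that the table holds, so most windows hold it. A match is a description of letters and was not tested as a binding site.

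The glucose carriers proper did not pass the test. Slc2a2, the main carrier of rodent beta cells and hepatocytes, had 389, 385, 381 and 365 CPM in Het and 299, 361, 408 and 559 CPM in KO. The Het libraries are nearly level and the KO libraries lie on both sides of them, and the log2 fold change was 0.10 (adjusted p = 0.874, edgeR). Its genotypes overlap, as do those of the beta-cell markers Pdx1, Nkx6-1 and Ucn3. Those of the other 5 of the 8 beta-cell markers do not, namely Ins1, Ins2, G6pc2, Mafa and Iapp. The highest Slc2a2 value was in KO replicate 24, the KO library with the highest summed beta-cell markers (12938 CPM). Het replicate 19 had the highest such sum of all libraries, 48813 CPM, and the lowest Slc2a2 value in Het. KO replicate 9 had the lowest sum, 6065 CPM, and more Slc2a2 than KO replicate 8. Whether Slc2a2 follows the share of beta cells was not tested. Per length it was the leading carrier in both genotypes, with 68.2 ± 1.89 CPM per kilobase in Het and 73.0 ± 19.9 in KO. Slc2a1 stood at 40.6, 34.7, 29.1 and 37.1 CPM in Het and 70.6, 58.5, 37.1 and 39.6 CPM in KO, overlapping, with a log2 fold change of 0.54 (adjusted p = 0.381). Its highest values were in KO replicates 8 and 9, and without both the log2 fold change was 0.11 (adjusted p = 0.891). Those libraries held the most leukocyte markers, KO replicate 8 also the most mesenchyme markers and KO replicate 9 the most acinar markers. The part of these signals in Slc2a1 was not tested.

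Slc2a3, the gene of a high-affinity carrier of neurons and blood cells, was low except in 1 library. It had between 2.13 and 10.8 CPM in Het, 33.6 CPM in KO replicate 8 and between 3.54 and 5.90 CPM in the other KO libraries. Its log2 fold change of 1.15 (adjusted p = 0.589) became −0.23 without KO replicate 8. Slc2a4, the insulin-responsive carrier gene of muscle and fat, was too low to test, with 8 reads over all Het libraries and 26 over all KO libraries, of which 25 were in KO replicate 8. What the mesenchyme and leukocyte signal of that library contributes to these values was not tested. In Het the order of carriers per length was Slc2a2, Slc2a5, Slc2a1, Slc2a3 and Slc2a4, and the ranges of adjacent carriers did not overlap for any pair. In KO Slc2a1 stood above Slc2a5 in mean, at 15.8 ± 4.89 against 4.93 ± 0.607 CPM per kilobase, with Slc2a3 at 3.0 ± 3.67 overlapping Slc2a5.

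**Figure D2:**
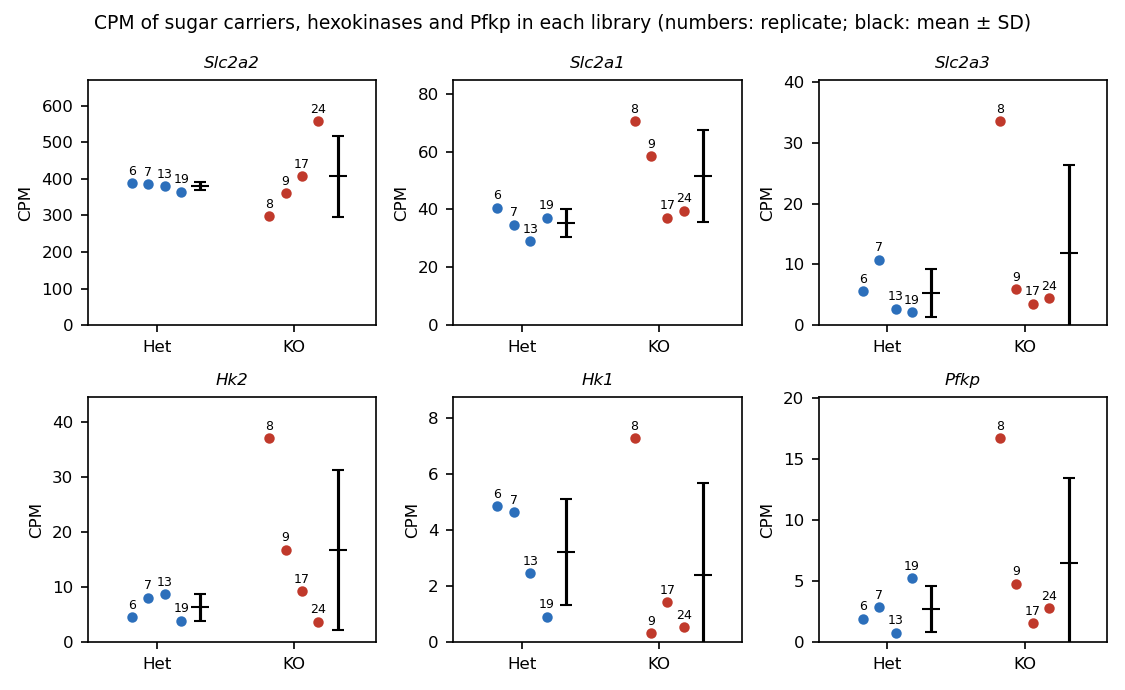
CPM (y axes, separate scale for each gene) in each library for 3 glucose carrier genes, 2 hexokinase genes and Pfkp, with the mean and SD of each genotype (n = 4), SD bars being cut off at 0. Slc2a2 overlaps between genotypes, and KO replicate 8 is the highest point for Slc2a1, Slc2a3, Hk1, Hk2 and Pfkp.

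Of the hexokinase genes, Hk1 and Hk2 stayed at or under 8.74 CPM in Het, and Hk2 reached 37.1 CPM in KO replicate 8. Hk1, a high-affinity enzyme of most tissues and one usually kept low in beta cells, had 4.87, 4.64, 2.47 and 0.912 CPM in Het and 7.29, 0.319, 1.43 and 0.539 CPM in KO. Apart from KO replicate 8 every KO library lay below 1.5 CPM, and the log2 fold change moved from −0.43 (adjusted p = 0.900) to −2.07 (adjusted p = 0.279) without that library. Hk2, the inducible high-affinity enzyme, had 4.63, 8.10, 8.74 and 3.95 CPM in Het and 37.1, 16.8, 9.35 and 3.77 CPM in KO. The genotypes overlap, and the log2 fold change of 1.40 (adjusted p = 0.391) became 0.63 without KO replicate 8 and 0.04 without KO replicates 8 and 9. Within each library the log2 ratio of Hk2 to Hk1 does not depend on scaling. It was 3.32 ± 1.5 in KO and 1.15 ± 0.98 in Het, with no overlap between genotypes and a difference of 2.17 (exact permutation test, two-sided, p = 0.0286, the smallest that 70 assignments allow, and 0.171 after adjustment over the 6 gene pairs compared). That difference was 2.50 without KO replicate 8 and 1.43 without KO replicate 9. Hk1 rests on few reads in some libraries, which limits the precision of this ratio.

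No gene of the set for fructokinase or for the release of glucose from its phosphate was called. Khk, whose product phosphorylates fructose after entry through GLUT5, ran from 13.4 to 18.7 CPM in Het and from 11.8 to 19.7 CPM in KO, with a log2 fold change of −0.06 (SE 0.24). The fall of Slc2a5 was not accompanied by a called change of the next enzyme on the same route. G6pc3, a broadly expressed glucose-6-phosphatase, had a log2 fold change of 0.10 (SE 0.20), and Slc37a4, the carrier that brings glucose-6-phosphate into the endoplasmic reticulum, one of −0.11 (SE 0.18). By contrast the islet-enriched paralog G6pc2, which hydrolyses glucose-6-phosphate in beta cells and is outside the 37 genes, fell from 484 ± 74.5 CPM in Het to 32.5 ± 7.88 CPM in KO (SD, n = 4). This is −3.89 on the log2 scale (SE 0.22, adjusted p = 5.71e-05, edgeR), with the smallest p of all tested genes. It is 1 of the 8 beta-cell markers summed above.

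At the branch between fructose-6-phosphate and fructose-1,6-bisphosphate Fbp1 rose, Pfkfb3 was higher in every KO library without passing the adjusted test, and no phosphofructokinase gene passed it. Fbp1 makes the phosphatase that turns fructose-1,6-bisphosphate back into fructose-6-phosphate, a reaction of gluconeogenesis. It had 4.09, 4.20, 6.09 and 6.79 CPM in Het and 18.5, 17.9, 12.0 and 20.5 CPM in KO. Every KO library lay above every Het library, and the mean rose from 5.30 ± 1.36 to 17.2 ± 3.66 CPM (SD, n = 4). This is 3.25-fold, or 1.70 on the log2 scale (SE 0.31, adjusted p = 0.0368, edgeR). The size was steady, between 1.53 and 1.83 over 18 alternatives, but the call held in 8 of them. It was lost without any 1 of the 7 libraries besides KO replicate 8 (adjusted p 0.0557 to 0.120), with the Y-linked covariate (0.189), with the leukocyte covariate (0.0869) and without KO replicates 8 and 9 (0.0869). Its paralog Fbp2, mainly of muscle, stayed at or under 2.19 CPM in all 8 libraries.

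The RefSeq window before Fbp1 (GRCm38.p6, chr13:62888283-62888532, minus strand, written 5′ to 3′ along the gene) is shown beside that of Slc2a5 because these genes are the pair with the largest called changes, in opposite directions. Capitals again mark CANNTG.

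Fbp1: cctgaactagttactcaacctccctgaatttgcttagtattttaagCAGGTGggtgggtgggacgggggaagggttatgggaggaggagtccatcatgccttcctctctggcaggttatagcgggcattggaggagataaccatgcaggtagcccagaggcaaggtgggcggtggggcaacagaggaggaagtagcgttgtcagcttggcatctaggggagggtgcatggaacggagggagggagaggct

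It holds 1 match, starting 204 bases before the gene start. Both windows carry the general E-box letters, as most RefSeq windows do, so their presence here cannot bear on the direction of change. Neither window holds CAGATG or CAGCTG.

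Pfkfb3 makes an inducible enzyme that produces fructose-2,6-bisphosphate, the strongest activator of phosphofructokinase. It had 9.04, 8.41, 10.8 and 8.01 CPM in Het and 27.8, 47.1, 13.7 and 14.5 CPM in KO. The genotypes do not overlap, but KO replicates 8 and 9 lie well above the other KO libraries, and the log2 difference was 1.51 (SE 0.39, edgeR, adjusted p = 0.128). Without KO replicates 8 and 9 it was 0.63 (adjusted p = 0.472), and with the leukocyte covariate it was 0.83 (adjusted p = 0.367). Those libraries held the most leukocyte markers, KO replicate 8 also the most mesenchyme markers and KO replicate 9 the most acinar markers. The part of these signals in Pfkfb3 was not tested. DESeq2 called Pfkfb3 (adjusted p = 0.00981). Its paralog Pfkfb2, the form activated by phosphorylation in heart and islets, was far more abundant per length in Het, at 74.8 ± 10.4 against 1.89 ± 0.254 CPM per kilobase, and had a log2 fold change of 0.09 (SE 0.15).

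The 3 phosphofructokinase genes gave log2 fold changes of 0.09 for Pfkl, 0.13 for Pfkm and 1.25 for Pfkp (adjusted p = 0.561). Pfkp, the platelet form, had 16.7 CPM in KO replicate 8 and at most 5.27 CPM in any other library, and its log2 fold change was 0.15 without that library. None of the remaining genes of the upper steps was called. Gpi1, the isomerase, had a log2 fold change of −0.03, the aldolase genes Aldoa and Aldoc −0.03 and 0.15, and Tpi1, the triose phosphate isomerase, −0.01. Their standard errors lay between 0.15 and 0.19 on the log2 scale. Aldoa had 281 CPM in KO replicate 8 and between 175 and 191 CPM in the other KO libraries.

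**Figure D3:**
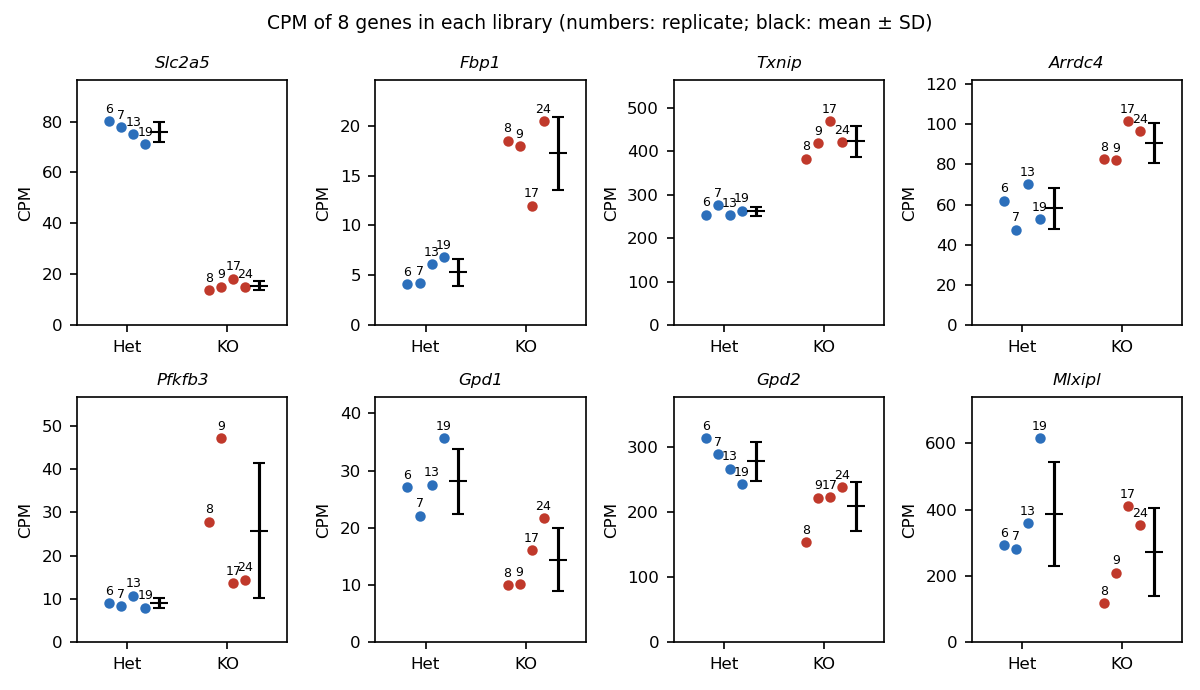
CPM (y axes, separate scale for each gene) in each Het and KO library for 8 genes, with the mean and SD of each genotype (n = 4). Slc2a5 is lower in all KO libraries, Fbp1, Txnip, Arrdc4 and Pfkfb3 are higher in all of them, Gpd1 and Gpd2 are lower without passing the adjusted test, and Mlxipl overlaps.

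In the lower steps no gene was called, and the counts of 4 of them are uncertain because much of their sequence recurs in other genes. Single-end reads of 100 bases that match several places can be dropped or split, and how the counts treat them is not given in the sources used here. Of all 100-base windows in the GENCODE coding transcripts, 67.0% for Pgk1, 53.1% for Gapdh, 39.7% for Pgam1 and 39.5% for Eno1 also occur in another gene, and no other gene of the set passed 22.2%. The Gapdh windows are shared with 86 genes, 82 of them annotated as pseudogenes. Gapdh, an enzyme found in every cell and often used as a reference gene, was at 1.40 ± 0.617 CPM per kilobase in Het, while its neighbours in the pathway Tpi1 and Aldoa stood at 58.3 ± 11.0 and 138 ± 23.8. Eno1 had between 0 and 3 reads in each library and was not tested. A low count of these 4 genes is therefore uncertain as a level, and the log2 fold changes of Gapdh (1.11, adjusted p = 0.425), Pgam1 (0.44, adjusted p = 0.629) and Pgk1 (−0.23, adjusted p = 0.835) carry the same uncertainty. Pgk1, with the largest shared share, still had 33.3 ± 10.4 CPM in Het, and its log2 fold change was −0.84 (adjusted p = 0.295) without KO replicates 8 and 9. Whether multiple matches lower these counts was not tested on reads.

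**Figure D4:**
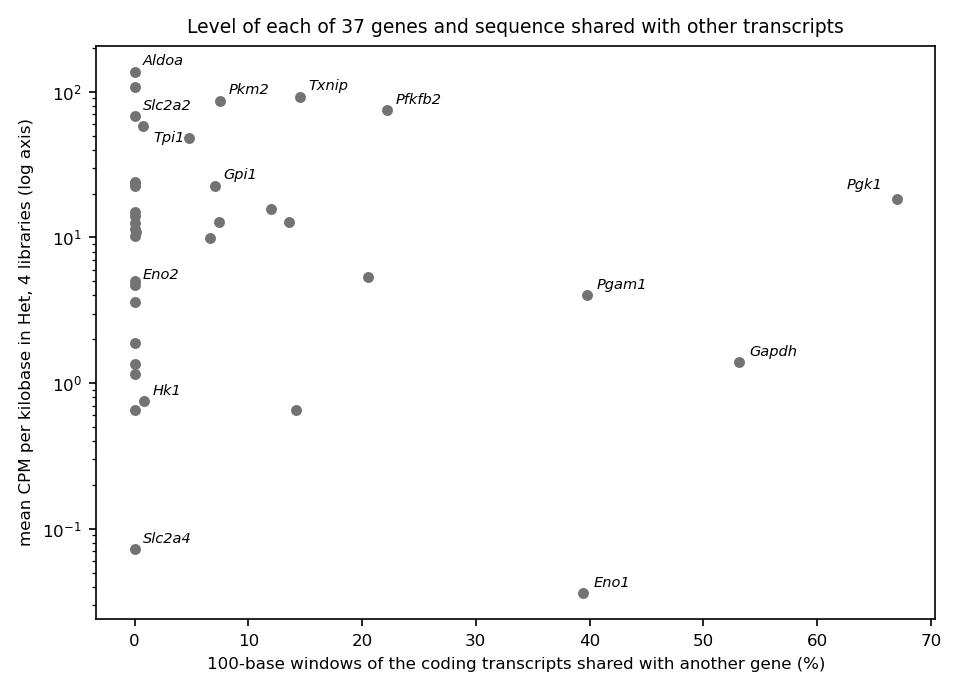
Share of 100-base windows of each gene's coding transcripts found in another gene (x axis, percent) against mean CPM per kilobase in the 4 Het libraries (y axis, log scale), with 1 point for each of 37 genes. Pgk1, Gapdh, Pgam1 and Eno1 lie to the right of 30%, and Gapdh and Eno1 are low, while 19 genes have no shared window.

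The other genes of the lower steps share less sequence: 20.5% of windows for Pklr, 7.52% for Pkm2 and none for Eno2. None of them was called, and the estimates of Pklr and Eno2 are imprecise. Pkm2, the file's symbol for the pyruvate kinase gene of most tissues, had 229, 193, 171 and 252 CPM in Het and 166, 200, 251 and 235 CPM in KO, overlapping fully, with a log2 fold change of 0.015 (SE 0.17). Pklr, the liver and red-cell pyruvate kinase and a textbook ChREBP target, had 22.4, 14.6, 9.98 and 15 CPM in Het and 7.43, 18.7, 16.9 and 13.5 CPM in KO, also overlapping, with a log2 fold change of −0.13 (SE 0.35). Eno2, the neuronal and endocrine enolase, had a log2 fold change of 0.17 (SE 0.37), and KO replicate 8 was its highest library at 23.9 CPM.

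After pyruvate, no gene of its entry into mitochondria passed the test, and those of the glycerol phosphate shuttle were lower in every KO library without passing after adjustment. Gpd1 makes the cytosolic enzyme of the shuttle and had 27.1, 22.1, 27.6 and 35.7 CPM in Het and 9.98, 10.1, 16.1 and 21.7 CPM in KO. The genotypes only just fail to meet, with KO replicate 24 next to Het replicate 7, and the log2 difference was −0.96 (SE 0.29, edgeR, adjusted p = 0.204). Gpd2 makes the mitochondrial partner, abundant in beta cells, and had 314, 289, 267 and 243 CPM in Het and 154, 222, 223 and 238 CPM in KO. The highest KO and the lowest Het library are again adjacent, and the log2 difference was −0.41 (SE 0.16, edgeR, adjusted p = 0.336). Without KO replicates 8 and 9 these values were −0.58 (adjusted p = 0.439) and −0.27 (0.530), and limma-voom with quality weights gave Gpd2 −0.25 (0.294). No setting among 18 alternatives called Gpd1 or Gpd2. Beside them, Ins1, Ins2, G6pc2, Mafa and Iapp, 5 of the 8 beta-cell markers, were lower in every KO library, while Pdx1, Nkx6-1 and Ucn3 overlapped. All 5 alpha-cell markers, Gcg among them, had log2 fold changes below 0, and 3 of the 5 did not overlap. Those of the 6 pan-endocrine markers were below 0 as well (median −0.40), and 1 of the 6 did not overlap. The part of cell make-up in the lower Gpd1 and Gpd2 was not tested. Pdha1, a subunit of pyruvate dehydrogenase, had a log2 fold change of 0.07 (SE 0.18), and Pcx, the pyruvate carboxylase that feeds anaplerosis in beta cells, −0.21 (SE 0.23). Pdk1, a kinase that inhibits pyruvate dehydrogenase, had −0.05 (SE 0.26), which became −0.52 (adjusted p = 0.443) without KO replicates 8 and 9.

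The ChREBP targets Txnip and Arrdc4 were higher in every KO library, while ChREBP and its partner were not. Txnip, whose product binds thioredoxin and promotes the internalisation of glucose carriers, had 254, 275, 253 and 264 CPM in Het and 383, 418, 470 and 421 CPM in KO. The Het libraries span a narrow range and every KO library lies well above it, with means of 262 ± 10.5 and 423 ± 35.6 CPM (SD, n = 4). Txnip rose 1.62-fold, or 0.69 on the log2 scale (SE 0.12, adjusted p = 0.0255, edgeR). Its size lay between 0.62 and 0.77 under all 18 alternatives, and it was called in 10 of them. It kept the call with the leukocyte covariate (adjusted p = 0.0315) and without KO replicates 8 and 9 (0.0291), and lost it with the Y-linked covariate (0.113) or without any 1 of those 7 libraries (0.0763 to 0.110). In the authors' deposited table Txnip has an adjusted p of 0.0530, and Slc2a5 and Fbp1 are the only genes of the set under 0.05. Of the 2824 windows of 100 bases in Txnip, 411 (14.6%) also occur in another gene. How the counts treat such reads is not given.

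Arrdc4, the closest relative of Txnip in structure and regulation, had 62.0, 47.5, 70.2 and 52.9 CPM in Het and 82.5, 82.0, 102 and 96.6 CPM in KO. No KO library reached down to the highest Het library, and the means were 58.2 ± 10.03 and 90.7 ± 9.97 CPM (SD, n = 4). Its log2 fold change of 0.64 (SE 0.16) was close to that of Txnip and did not pass in the main test (adjusted p = 0.118, edgeR). DESeq2 (adjusted p = 0.0229), limma-voom with quality weights (0.0282) and the mesenchyme covariate in edgeR (0.0305) called it. The log2 ratio of Txnip to Arrdc4 within a library was 2.22 ± 0.09 in KO and 2.18 ± 0.30 in Het, a difference of 0.04 (exact permutation test, two-sided, p = 0.886 before and after adjustment over 6 pairs).

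Windows of 250 bases before both genes in RefSeq (GRCm38.p6; Txnip at chr3:96557707-96557956, plus strand, and Arrdc4 at chr7:68749239-68749488, minus strand) are printed because ChREBP and its relative MondoA are known to act on both through carbohydrate response elements, which are E-box-like half-sites 5 bases apart. In Txnip capitals mark a pair of CACGAG half-sites with the 5 bases between them, and CCAAT on either strand, a box of nuclear factor Y. In Arrdc4 they mark the E-box CACGTG, and CCAAT on either strand.

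Txnip: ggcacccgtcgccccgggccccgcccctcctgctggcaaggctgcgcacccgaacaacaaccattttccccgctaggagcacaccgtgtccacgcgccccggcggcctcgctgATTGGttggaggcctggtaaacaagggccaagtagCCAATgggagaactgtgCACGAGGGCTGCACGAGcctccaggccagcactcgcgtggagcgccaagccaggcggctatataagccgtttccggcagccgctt
Arrdc4: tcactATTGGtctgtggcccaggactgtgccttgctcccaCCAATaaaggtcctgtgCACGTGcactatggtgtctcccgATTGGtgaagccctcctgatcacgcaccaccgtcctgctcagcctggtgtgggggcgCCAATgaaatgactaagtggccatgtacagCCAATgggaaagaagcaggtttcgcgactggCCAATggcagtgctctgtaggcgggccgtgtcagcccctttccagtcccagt

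In Txnip the paired half-sites start 85 bases before the gene start, with 2 CCAAT boxes upstream of them. These letters were searched on both strands because the Txnip element has them, so finding them in 1 of 32851 windows follows from that choice. Arrdc4 has no such pair in its window but 1 CACGTG, starting 193 bases before the gene start, and 6 CCAAT boxes. CACGTG is found in 10 of the 54 windows of the gene set (18.5%) and in 6.02% of all windows, and CCAAT in 31.5% and 33.8%. None of these matches was tested as a site in these cells.

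Mlxipl itself had 292, 283, 359 and 616 CPM in Het and 119, 210, 411 and 353 CPM in KO. The genotypes overlap widely, with Het replicate 19 highest and KO replicate 8 lowest, and the log2 difference was −0.50 (SE 0.37, edgeR, adjusted p = 0.629). Without KO replicates 8 and 9 it was −0.02 (adjusted p = 0.987). Per length Mlxipl was an abundant transcript of these cells, at 107 ± 43.0 CPM per kilobase in Het, near Txnip at 92.5 ± 3.71. Mlx had a log2 fold change of −0.07 (SE 0.21). Counts per gene do not separate the ChREBP isoforms.

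Other genes of the same routes were read from 7 further lists. Among other sugar carriers and sugar phosphate genes 19 of 22 were tested, and G6pc2 was the 1 gene called, with a median log2 fold change of −0.06. None of the 16 genes of the pyruvate dehydrogenase complex and lactate handling was called, with 2 at an unadjusted p under 0.05, both lower in KO. The smallest p there was that of Pdhx, the E3-binding subunit (−0.45, SE 0.18, adjusted p = 0.338). None of 8 pentose phosphate genes was called or had an unadjusted p under 0.05, with Rpia, the ribose-5-phosphate isomerase, at 0.19 (adjusted p = 0.698).

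Genes of the TCA cycle and malate-aspartate shuttle were mostly lower in KO without passing. All 22 were tested and none was called, 1 had an unadjusted p under 0.05, and 19 had a negative log2 fold change, as had 6581 of all 14116 genes. Their median was −0.17 against 0.03 for all genes, and Fh1, the fumarase, had the smallest p (−0.46, SE 0.18, adjusted p = 0.339). Their summed level ran from 2385 to 2718 CPM in Het and from 2185 to 2448 CPM in KO, which overlap.

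No gene of the wider ChREBP network was called. Of 10 genes for MondoA, the Max network and other alpha-arrestins 5 were positive and 5 negative, and Mxi1, a Max-binding repressor, had the smallest p (0.54, SE 0.18, adjusted p = 0.245). Fat synthesis genes usually counted as ChREBP targets gave no call among 13 tested of 14, with 1 lower and 1 higher at an unadjusted p under 0.05 and a median of 0.07. Scd2, a stearoyl-CoA desaturase, was at 714 ± 219 CPM in Het and 1155 ± 344 CPM in KO (SD, n = 4), a log2 fold change of 0.69 (adjusted p = 0.322), and was highest in KO replicate 8. Among hypoxia-inducible genes, which share several glycolytic targets, 14 of 15 were tested and none was called. Of these, 10 were positive, as were 7535 of all 14116 tested genes. KO replicate 8 was the highest library for 8 of the 15, and for 3198 of the 14116. Higd1a, a mitochondrial hypoxia-induced gene, had the smallest p and lay lower in KO (−0.87, SE 0.26, adjusted p = 0.199).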

How the data were processed

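RNA of sorted cells was amplified to cDNA (NuGEN Ovation V2) and read as single-end 100 bp reads, per the labels' protocols. This chemistry is not known to keep strand, so overlapping genes on opposite strands cannot be told apart. The authors deposited whole-number read counts per gene symbol, not normalized. The submitters' processing notes name bcl2fastq 1.8.4, TopHat2 2.1.0, Cufflinks 2.0.2, DESeq and build mm9. The counting tool, annotation and treatment of multi-mapped reads are each not given in the sources used here. A deposited table of the authors gives, per the file headers, the mean signal (normalized counts) per group, the fold ratio of these means, its log2 and p-values with adjusted p-values. Amplified copies count as reads, so the precision from depth is overstated. Pkm2 was matched to Pkm in the reference.

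Groups and replicate numbers came from the labels. 0 columns were left unmatched, and no pair of libraries held the same values. Here edgeR 4.0.16 (R 4.3.3) was used: filterByExpr (minimum count 10, minimum total count 15) kept 14116 genes, TMM scaling, quasi-likelihood F test, two-sided, Benjamini-Hochberg adjustment over all of them, calls at an adjusted p under 0.05. The common dispersion was 0.181. The fit was tested on simulated data. Ratios of 6 paralog pairs used exact permutation over 70 assignments. Shared windows were counted in GENCODE transcripts of GRCm38, and lengths for CPM per kilobase are those of the longest coding transcript there; promoter windows are RefSeq's.

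Genes named were the 37, Neurod1 and, from each further pathway list, up to 3 called genes with the smallest p, or its lowest-p gene if it had no call. The single beta-cell and alpha-cell markers named were picked with their values in view. The members and lists were chosen with earlier results of these data known.

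Alternatives were median-ratio or total-count scaling, no filter, a filter of 2 CPM in 4 libraries, DESeq2 1.42.0, limma-voom (limma 3.58.1) with sample quality weights, mesenchyme and Y-linked covariates, and each library left out. A leukocyte covariate and leaving out KO replicates 8 and 9 together were chosen after seeing the data.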

Additional observations from a re-analysis of the deposited data

Results flagged for a closer look

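In 7 of 74 groups of 4 libraries (37 genes, 2 genotypes) 1 library stood apart from the other 3 by Dixon's criterion at the 95% level, and chance flags about 1 in 20 such groups. KO replicate 8 accounts for 4 of the 7, and it also held the most mesenchyme, leukocyte and immediate-early signal. Their part in these values was not tested.

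In KO replicate 8 Slc2a3 was at 33.6 CPM against 3.54 to 5.90 in the other KO libraries, and Hk1 was at 7.29 CPM against 0.319 to 1.43. Slc2a4 was at 1.82 CPM there against 0 to 0.0754, and Aldoa at 281 CPM against 175 to 191. None of these 4 genes was called between the genotypes.

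Pgam1 was at 13.2 CPM in KO replicate 24 against 8.38 to 8.60 in the other KO libraries. Pfkfb2 was at 399.8 CPM in Het replicate 13 against 304 to 314 in the other Het libraries. Aldoc was at 30.4 CPM in Het replicate 19 against 32.3 to 32.7, a small gap that stands out because the other 3 lie so close.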

How the results depend on the processing

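No paired analysis was possible because the 2 genotypes share no replicate number. The 3 calls stood under median-ratio and total-count scaling, without a filter, with 2 CPM in 4 libraries and without KO replicate 8. DESeq2 called 520 genes and 5 of the set (Pfkfb3 and Arrdc4 added), and the Y-linked covariate 28 and 1 (Slc2a5). Limma-voom with quality weights called 500 genes and the mesenchyme covariate 591, each with Arrdc4 added to the 3 calls of the set. With the leukocyte covariate, and without KO replicates 8 and 9, Slc2a5 and Txnip stayed called in the set and Fbp1 did not. Leaving out 1 library gave 29 (Het replicate 13) to 285 (KO replicate 8) calls over all genes and 1 to 3 in the set. Slc2a5 alone was called without any single library other than KO replicate 8. These fits have fewer libraries, and the cause was not otherwise tested.

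Log2 fold changes of genes that were not called changed sign in places, most of them near 0 and, further from 0, those of Pfkp (1.25), Slc2a3 (1.15) and Mlxipl (−0.50). With total counts Aldoa was 0.027, Gpi1 0.030, Pdk1 0.0057 and Tpi1 0.053. Without a filter Pkm2 was −0.0041. With limma-voom Gpi1 was 0.028, Pdha1 −0.043, Pklr 0.22 and Tpi1 0.077. With the mesenchyme covariate Eno2 was −0.046 and Gpi1 0.0045. With the Y-linked covariate Gpi1 was 0.082 and Pdha1 −0.079. With the leukocyte covariate Eno2 was −0.043, Gpi1 0.072, Mlxipl 0.00018, Pdha1 −0.13, Pfkp −0.24 and Slc2a3 −0.28. Without KO replicates 8 and 9 Eno2 was −0.0077, Gpi1 0.052, Pdha1 −0.15, Pfkp −0.32 and Slc2a3 −0.43. Leaving out 1 library gave −0.22 to 0.047 for Aldoa, −0.16 to 0.39 for Eno2, −0.034 to 0.18 for G6pc3, −0.096 to 0.040 for Gpi1, −0.21 to 0.045 for Khk, −0.17 to 0.043 for Mlx, −0.043 to 0.15 for Pdha1, −0.22 to 0.11 for Pdk1. It gave −0.029 to 0.19 for Pfkfb2, −0.054 to 0.21 for Pfkl, −0.30 to 0.098 for Pklr, −0.091 to 0.11 for Pkm2, −0.11 to 0.21 for Slc2a2, −0.23 to 1.75 for Slc2a3, −0.22 to 0.020 for Slc37a4, −0.13 to 0.075 for Tpi1, and −0.072 to 0.16 for the difference in the Txnip to Arrdc4 ratio. Slc2a4 and Eno1 had too few reads to test.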
